A study of Homo sapiens with 27 samples.

Results

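MM134 LTED-B and MM134 LTED-D are long-term estrogen-deprived (LTED) variants of MDA-MB-134VI (MM134), a cell line of estrogen receptor (ER)-positive invasive lobular carcinoma of the human breast, and their transcriptomes were set directly against each other. The members were taken by their labels: 3 LTED-B and 3 LTED-D libraries, or 6 of the 27 RNA-Seq libraries of the series. Both variants were derived separately from the same parental line by keeping cells for months in IMEM with charcoal-stripped serum, which holds little steroid hormone. This went on until cells that grow without estrogen emerged. Both groups thus share the line, the medium and the kind of deprivation, and no drug or engineered allele separates them. The length of the deprivation is given as a range over the variants and not for each, so it may differ between the groups. Parental MM134 cells, deprived of hormone for 3 days only, are given beside them as the starting point. The 3 libraries of a group came from wells seeded in parallel, and each variant is 1 derivation, so every test below speaks for these cultures and not for estrogen deprivation as such. The comparison asks how far 2 populations that reached the same selected property from the same cells differ in the genes they express.

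ER is a transcription factor that estrogen activates and that drives proliferation of luminal breast cells. Cells kept without estrogen can grow out with ER still present and active, or with growth factor receptors, lipid synthesis or other programmes carrying growth instead. Invasive lobular carcinoma is known for loss of the adhesion protein E-cadherin, and most tumours of this type depend on ER.

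LTED-B libraries held 42051154 to 44018412 estimated counts and LTED-D libraries 32284183 to 45318846, with 10.4% to 13.7% of a library in its 3 leading genes. Levels are given as CPM, the counts of a gene scaled to the library size and normalized for library composition. They depend on transcript length, so they are compared between cultures and not between genes. Over the 1000 most variable genes the distance between an LTED-B and an LTED-D library was 37.6 to 39.5, against 6.68 to 13.6 between LTED-B wells and 6.14 to 7.35 between LTED-D wells. LTED-B replicate 3 lay farther from the other 2 LTED-B wells than those did from each other, with a chi-square per degree of freedom of 9.15 and 10.0 against 2.35. LTED-D replicate 2 held transcripts of fibroblasts that the other 5 libraries nearly lacked: COL3A1 at 5.24 CPM against at most 0.222, DCN at 2.84 against at most 0.348, and LUM at 2.28 against 0. The 10 fibroblast and endothelial markers summed to 2.37 to 2.76 CPM in LTED-B and 5.21 to 16.4 CPM in LTED-D. Of that list 6 genes were tested and 1 was called, VWF, at 2.59 to 2.92 CPM in LTED-D against 0.493 to 0.743 in LTED-B (log2 fold change -2.21). The 10 immune cell markers summed to 11.5 to 12.6 CPM in LTED-B and 11.4 to 12 CPM in LTED-D. Among them CD68 and LYZ were higher in LTED-B (log2 fold changes 0.76 and 1.32), ITGAM was higher in LTED-D (-1.09), and the pan-leukocyte gene PTPRC stayed at or below 0.366 CPM in all 6 libraries. CD68 was not called when any 1 of the 6 libraries was left out (log2 fold changes 0.69 to 0.81). The part of the fibroblast and immune transcripts in the differences between the variants was not tested beyond this: without LTED-B replicate 3 and LTED-D replicate 2, 1848 genes were called, and they include 1634 (84.7%) of the 1929 described next.

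The variants differed in 1929 of 26061 genes tested (7.40%), by more than 1.5-fold and with an adjusted p under 0.001. Of these, 677 (2.60% of those tested) were higher in LTED-B and 1252 (4.80%) were higher in LTED-D. The counts of called list members below are to be read against these shares. The difference exceeded 4-fold in 101 of the genes higher in LTED-B and in 232 of those higher in LTED-D, and 16-fold in 26 and 48. In 24 genes called higher in LTED-B no LTED-D library held more than 3 counts, and 38 genes called higher in LTED-D were as low in LTED-B. The 3 libraries of one variant lay entirely above those of the other in 12624 genes (48.4%), among them all 1929 called. In RNA from whole cultures, a lower level may come from fewer cells with the transcript or from less of it per cell, and these cannot be told apart. Against parental cells, LTED-B differed by the same rule in 4135 genes (15.9%) and LTED-D in 4581 (17.6%). These contrasts share the 3 parental libraries and are given below only as values side by side.

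**Figure D1:**
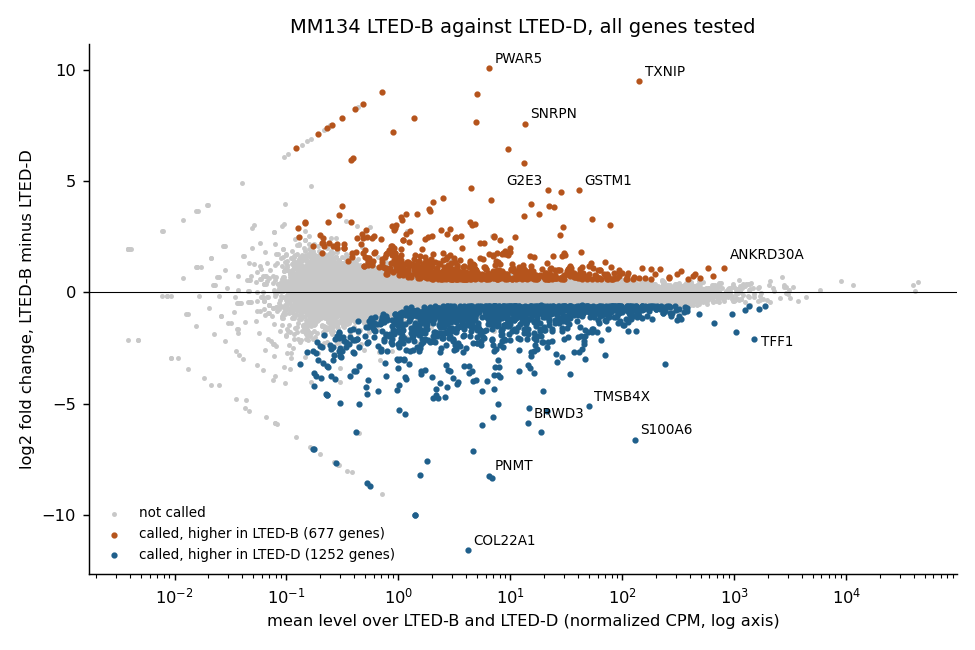
Log2 fold change of LTED-B minus LTED-D (vertical axis) against the mean level over both variants in normalized CPM (horizontal axis, logarithmic) for the 26061 genes tested, one point per gene. Orange points are the 677 genes called higher in LTED-B and blue points the 1252 called higher in LTED-D. TXNIP and S100A6 combine a large fold with a high level, while TFF1 lies at a higher level with a smaller fold.

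TXNIP, which binds and inhibits thioredoxin and restrains glucose uptake, was abundant in LTED-B and nearly absent from LTED-D. It stood at 281, 277 and 289.9 CPM in the LTED-B libraries and at 0.291, 0.788 and 0.116 CPM in the LTED-D libraries, with a parental mean of 258 CPM. The groups did not come near each other, and the LTED-B wells lay at the parental level. The log2 fold change was 9.51 (SE 0.13, adjusted p = 2.94e-19, edgeR quasi-likelihood test with Benjamini-Hochberg adjustment). ARRDC4, a related arrestin that is controlled by the same glucose-responsive factors, was at 13.9 CPM in LTED-B and 14.7 CPM in LTED-D (log2 fold change -0.08, not called). The 40 expressed neighbours of TXNIP on chromosome 1 had a median log2 fold change of 0.02, so the stretch around it did not share the difference.

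G2E3, a ubiquitin ligase with a role in the DNA damage response, had the same pattern. It was at 40.4, 42.2 and 42.7 CPM in LTED-B, at 1.75, 1.86 and 1.57 CPM in LTED-D and at 40.5 CPM in parental cells (log2 fold change LTED-B minus LTED-D of 4.60). BRWD3, a chromatin reader encoded on the X chromosome, had the opposite one: 0.627, 0.422 and 0.37 CPM in LTED-B, 29.6, 28.6 and 26.6 CPM in LTED-D and 47.8 CPM in parental cells (log2 fold change -5.88, adjusted p = 2.52e-18). TXNIP and G2E3 did not differ from parental cells in LTED-B by the rule for calls, and BRWD3 in LTED-D lay below parental cells by a log2 fold change of -0.76. The neighbours of G2E3 and BRWD3 had median log2 fold changes of 0.02 and -0.0022.

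A block of genes in the imprinted Prader-Willi region of chromosome 15 was higher in LTED-B. In most human cells the paternal copy of this region is transcribed from the SNURF-SNRPN start and the maternal copy is silenced by methylation there. SNRPN (chr15:24823637-24978723, hg38), which encodes a protein of the spliceosome, stood at 27.8, 26.4 and 26.6 CPM in LTED-B and at 0.129, 0.0844 and 0.185 CPM in LTED-D, and parental cells had 0.144 CPM. LTED-D therefore lay at the parental level and LTED-B above both (log2 fold change 7.59, SE 0.15, adjusted p = 3.51e-17). SNHG14, the long host transcript of the small nucleolar RNAs of the region, was at 24.1 CPM in LTED-B and 2.20 CPM in LTED-D, with 2.28 CPM in parental cells. SNURF was at 1.05, 1.74 and 1.5 CPM in LTED-B and had no count in LTED-D. PWAR5 was at 13.3, 13.5 and 12.2 CPM in LTED-B and had at most 1 count in an LTED-D library, which makes it at least 156-fold higher in LTED-B. These transcripts overlap on one strand, and the estimated counts divide fragments among them, so they are not separate observations. Of 13 genes listed for the region 11 were tested, 6 were higher in LTED-B and 0 were higher in LTED-D. The list was drawn up after these values had been seen. UBE3A, the ubiquitin ligase further along the region, was at 177 and 175 CPM, and HERC2 beyond it at 158 and 159 CPM, in LTED-B and LTED-D.

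The 250 bases in front of the annotated start of the 4 loci above are printed from RefSeq (GRCh38.p14). They run 5′ to 3′ on the strand of the gene. Which start sites these cells used was not measured. For the chromosome 15 region the window is that of SNURF, while SNRPN is annotated from chr15:24823637, further upstream. Capitals mark each CG dinucleotide, the target of DNA methylation in human cells. All 4 loci were found in the promoter table. TXNIP lies on the minus strand (chr1:145996580-145996829), G2E3 on the plus strand (chr14:30558908-30559157), BRWD3 on the minus strand (chrX:80809878-80810127) and SNURF on the plus strand (chr15:24954737-24954986).
TXNIP: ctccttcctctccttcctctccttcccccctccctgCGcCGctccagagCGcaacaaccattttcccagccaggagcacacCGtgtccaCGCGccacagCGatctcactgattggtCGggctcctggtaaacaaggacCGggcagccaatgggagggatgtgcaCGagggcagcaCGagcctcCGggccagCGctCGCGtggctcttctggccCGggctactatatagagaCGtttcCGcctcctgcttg
G2E3: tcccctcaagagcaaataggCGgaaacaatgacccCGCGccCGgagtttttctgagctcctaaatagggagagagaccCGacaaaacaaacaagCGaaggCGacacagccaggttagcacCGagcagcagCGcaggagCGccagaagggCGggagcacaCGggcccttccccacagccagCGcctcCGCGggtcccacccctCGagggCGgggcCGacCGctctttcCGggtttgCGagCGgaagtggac
BRWD3: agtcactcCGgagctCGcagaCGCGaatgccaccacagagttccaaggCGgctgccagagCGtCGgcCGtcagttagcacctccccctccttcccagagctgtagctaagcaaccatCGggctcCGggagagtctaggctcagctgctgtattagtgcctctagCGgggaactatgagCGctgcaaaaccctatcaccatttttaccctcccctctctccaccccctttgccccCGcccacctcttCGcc
SNURF: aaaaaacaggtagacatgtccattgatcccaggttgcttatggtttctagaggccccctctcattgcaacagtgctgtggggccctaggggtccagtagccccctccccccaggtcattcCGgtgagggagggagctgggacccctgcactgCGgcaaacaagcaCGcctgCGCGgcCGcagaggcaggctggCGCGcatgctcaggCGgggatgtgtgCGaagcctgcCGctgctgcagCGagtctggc
The windows hold 18 CG in TXNIP, 22 in G2E3, 14 in BRWD3 and 12 in SNURF, where the median of 35114 such windows is 11. Windows with at least as many make up 36.8%, 28%, 44.8% and 48.5% of all. Methylation was not measured in these samples.

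GSTM1, ABCC3 and NQO1, genes of drug and oxidant defence, were also higher in LTED-B. They were named for the size of their fold or CPM difference. None of them is in the list of drug and steroid metabolism genes described further on. GSTM1, a glutathione transferase, was at 76.8, 81.9 and 76.0 CPM in LTED-B and at 2.88, 2.84 and 3.78 CPM in LTED-D, on either side of a parental mean of 32.5 CPM (log2 fold change 4.61). Of the 5 GSTM genes 3 were higher in LTED-B, GSTM1, GSTM2 and GSTM5, while GSTM3 was at 194 and 225 CPM and GSTM4 at 25.8 and 21.5 CPM. The GSTM genes are near-identical in parts, so the division of fragments among them is uncertain. ABCC3, a pump that exports drug and steroid conjugates, was at 57.4, 55.2 and 51.9 CPM against 2.17, 2.39 and 2.46 CPM (log2 fold change 4.54, adjusted p = 6.81e-20). NQO1, a quinone reductase of the oxidant defence, stood at 749.6, 788 and 820.2 CPM in LTED-B and 369, 374 and 357 CPM in LTED-D, against 149 CPM in parental cells.

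EGFLAM, a secreted matrix protein, was at 9.46 to 10.3 CPM in LTED-B and at most 0.113 CPM in LTED-D. PACSIN3, which acts in membrane traffic, was at 18.7 to 18.9 CPM against 0.0563 to 0.356 CPM, and B3GNT9, a glycosyltransferase, at 25.0 to 27.9 CPM against 0.366 to 0.579 CPM. The log2 fold changes of these 3 genes were 7.68, 6.46 and 5.81. NSG2, a neuronal trafficking protein, was at 12 to 13.2 CPM against 0.563 to 0.811 CPM, with 8.90 CPM in parental cells. PCDHA13 was the one of 15 alpha protocadherin genes tested that was called (7.60 to 9.96 CPM against 0.139 to 0.776 CPM), although these adhesion genes share their last exons and PCDHA10 was at 31.2 and 33.2 CPM in LTED-B and LTED-D.

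Of 4 secretoglobin genes, listed after their values had been seen, 3 were higher in LTED-B. SCGB2A2, which encodes mammaglobin, was at 27.3, 28.2 and 30.3 CPM in LTED-B, 1.84, 1.83 and 1.76 CPM in LTED-D and 0.0938 CPM in parental cells (log2 fold change 3.98), and SCGB1D2 and SCGB2A1 were the others (2.63 and 1.10). ANKRD30A, the breast differentiation antigen NY-BR-1, was at 1103, 1148 and 1085 CPM against 522, 532 and 503 CPM, with parental cells between the variants at 765 CPM. AZGP1, a secreted glycoprotein of glandular epithelium, was at 560.2 to 596 CPM against 315 to 330.2 CPM, and ST6GAL1, a sialyltransferase, at 438.8 to 456 CPM against 221 to 232 CPM. Both had been far lower in parental cells, at 1.64 and 12.2 CPM. LAMB2, a laminin chain of basement membranes, was at 783 to 822 CPM against 469 to 504 CPM.

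Among the genes higher in LTED-D, S100A6 combined a large fold with a high level. This calcium-binding protein of the S100 family (chr1:153534599-153536244) stood at 2.90, 2.28 and 2.64 CPM in LTED-B and at 256, 253 and 259 CPM in LTED-D, and parental cells had 58.3 CPM, between the variants. The log2 fold change was -6.62 (SE 0.05, adjusted p = 1.71e-22). Of 12 S100 genes of chromosome 1, listed after the values had been seen, 6 were higher in LTED-D and 0 in LTED-B, with a median log2 fold change of -0.98. S100A16 was at 66.0 and 151 CPM in LTED-B and LTED-D and S100A14 at 86.0 and 146 CPM. S100A9 and S100A8, alarmins of inflamed epithelium and myeloid cells, were at 0.645 and 1.01 CPM in LTED-B and 4.04 and 3.63 CPM in LTED-D. S100A13, of the same cluster, was at 86.5 and 85.0 CPM and not called.

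Several genes were nearly absent from LTED-B. TMSB4X, an actin-binding peptide that most cells express, was at 3.44, 2.18 and 2.76 CPM in LTED-B, 95.2, 98.7 and 97.6 CPM in LTED-D and 328 CPM in parental cells (log2 fold change -5.12). TNFRSF14, a receptor of the tumour necrosis factor family that regulates T cells, was at 0.164 to 0.348 CPM in LTED-B and 13.4 to 14.4 CPM in LTED-D, with 13.9 CPM in parental cells. B3GALNT1, the globoside synthase, was at 0.246 to 0.697 CPM against 36.0 to 38.1 CPM, with 27.1 CPM in parental cells. These 3 genes, like BRWD3, were present in parental cells and in LTED-D and nearly absent from LTED-B.

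PNMT, which makes adrenaline from noradrenaline, had at most 0.0469 CPM in LTED-B and 12.8, 12.4 and 13.3 CPM in LTED-D, at least 180-fold more, against 7.47 CPM in parental cells. SLC5A8, a transporter of short-chain fatty acids, was at least 129-fold higher in LTED-D, at 8.47 to 9.73 CPM. Other transcripts were near 0 in parental cells and in LTED-B and present in LTED-D. COL22A1, a collagen of tissue junctions, had no count in LTED-B and 8.67, 8.36 and 8.18 CPM in LTED-D (at least 118-fold). CRNN, a protein of squamous epithelium, was at 13.4 to 13.8 CPM (at least 192-fold). CPN1, PTPRK and TENM1, a carboxypeptidase, a receptor phosphatase and a teneurin, followed at 10.6 to 11.4, 40.2 to 42.5 and 28.2 to 29.1 CPM in LTED-D, against at most 0.271, 1.15 and 0.882 CPM in LTED-B.

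**Figure D2:**
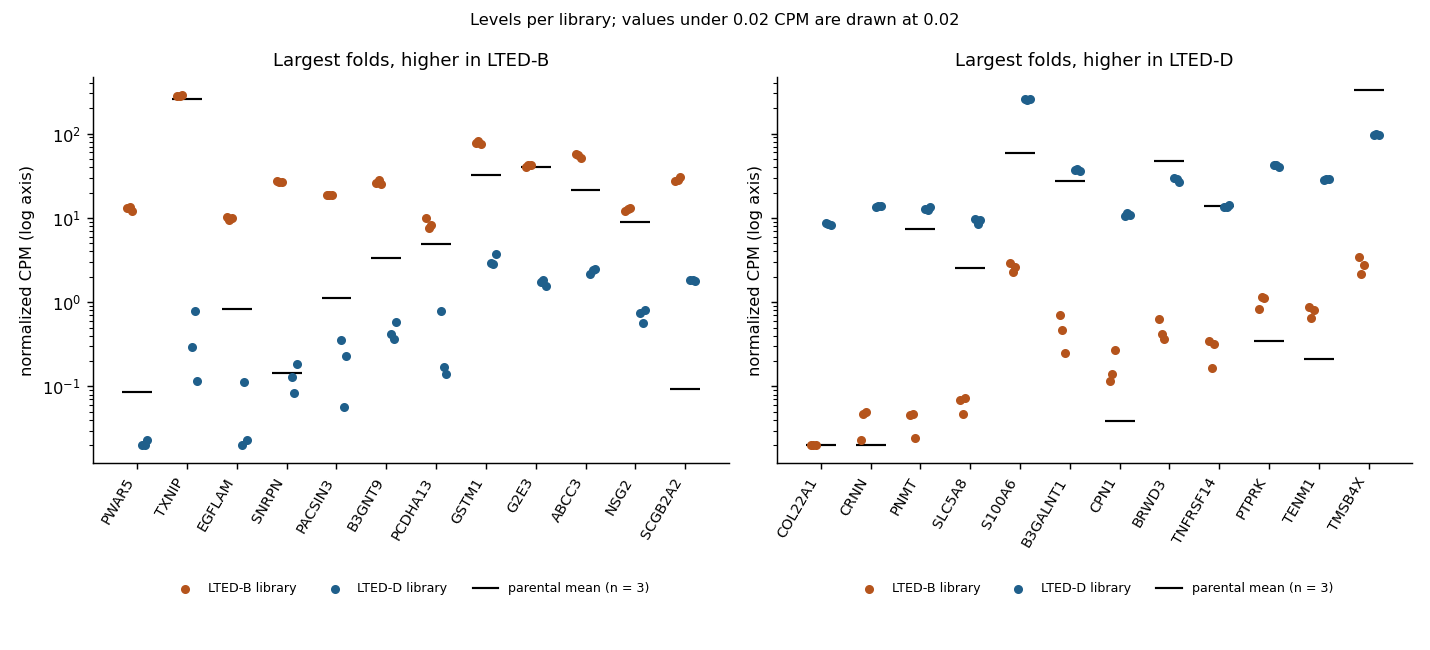
Normalized CPM (logarithmic axis) of the 12 genes with the largest folds in each direction among called genes of at least 5 CPM in the higher variant, one point per library, with a bar at the mean of 3 parental libraries. The left panel holds genes higher in LTED-B and the right panel genes higher in LTED-D. The parental bar lies with LTED-B for TXNIP and G2E3, with LTED-D for SNRPN and TNFRSF14, and between the variants for S100A6 and GSTM1.

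TFF1, a secreted trefoil peptide and a classical estrogen-induced gene, was higher in LTED-D. It was at 540.4, 585 and 569 CPM in LTED-B and 2439, 2348 and 2506 CPM in LTED-D, and both variants exceeded parental cells, at 4.28 CPM (log2 fold change LTED-B minus LTED-D of -2.10). ESR1, which encodes ER, was at 516, 549 and 533 CPM in LTED-B and 466, 474 and 459 CPM in LTED-D, with 360 CPM in parental cells. The wells did not overlap, but the difference was small and not called (log2 fold change 0.19, adjusted p = 2.34e-05). Of the 14 genes of ER and its classical targets, 2 were higher in LTED-B and 3 in LTED-D, with a median log2 fold change of 0.20, where all genes tested had 0.04. MYB, a transcription factor, and STC2, a secreted glycoprotein, were higher in LTED-B (0.99 and 1.25). RET, a receptor tyrosine kinase, and PDZK1, a scaffold protein, were higher in LTED-D with TFF1 (-0.80 and -0.90). GREB1 was at 75.2 and 58.8 CPM, PGR at 0.589 and 0.257 CPM and CCND1 at 3232 and 4243 CPM in LTED-B and LTED-D, none of them called.

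FOXA1 and GATA3, the factors that open chromatin for ER, were at 433 and 161 CPM in LTED-B and 556 and 190 CPM in LTED-D, neither called. Of 11 luminal keratins and epithelial membrane genes, MUC1 alone was called, higher in LTED-D at 5.24 to 5.93 CPM against 0.912 to 1.09 CPM. KRT8, KRT18 and KRT19 differed by log2 fold changes of -0.31, -0.17 and 0.11.

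Most of the genes listed for MHC class II were higher in LTED-D. MHC class II molecules display peptides to helper T cells, CIITA is the master activator of their genes, and CD74 is the chain that occupies their groove during transport. Of 15 genes listed and tested, 9 were higher in LTED-D, 0 were higher in LTED-B, and the median log2 fold change was -1.40. This makes 60% called, where 7.40% of all genes tested were. HLA-DRA was at 15.7, 15.3 and 15 CPM in LTED-B, 74.2, 76.4 and 76.5 CPM in LTED-D and 6.92 CPM in parental cells (log2 fold change -2.31, adjusted p = 1.65e-18). CD74 followed at 52.5 and 174 CPM in LTED-B and LTED-D, and HLA-DRB1 at 12.8 and 52.0 CPM. CIITA itself was at 6.22, 5.75 and 5.42 CPM in LTED-B and 13.9, 12.7 and 13.2 CPM in LTED-D (log2 fold change -1.19). LTED-B lay at the parental level of CIITA, 5.94 CPM, and above the parental level of HLA-DRA. HLA-DMA, which loads the peptides, was at 34.2 and 33.7 CPM, and the factors RFX5, RFXAP and RFXANK had log2 fold changes between -0.09 and 0.12. The HLA genes are similar in sequence and variable between people, so counts of single ones are uncertain. As given above, the immune cell markers had overlapping sums, with ITGAM higher in LTED-D, CD68 and LYZ higher in LTED-B and PTPRC near 0. The part of immune cells in the MHC class II difference was not tested.

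MHC class I and its peptide loading machinery showed a smaller difference, with 4 of 15 genes higher in LTED-D, 0 higher in LTED-B and a median of -0.44. The 4 were HLA-B, HLA-F, the peptide transporter TAP1 and the immunoproteasome subunit PSMB8 (log2 fold changes -0.81, -0.68, -0.69 and -1.09), while B2M, the shared light chain, was at 376 and 359 CPM. Interferon-stimulated genes went both ways. Of 22 tested, 4 were higher in LTED-B and 6 in LTED-D, and their median was -0.02. The OAS genes, whose products sense double-stranded RNA, were higher in LTED-D, OAS3 at 44.8, 41.9 and 48.1 CPM against 6.76, 6.36 and 6.48 CPM in LTED-B (log2 fold change -2.78). OAS2, OAS1, BST2, IFITM1 and IRF1 accompanied it. IFIT1, IFI44L, IRF9 and IRF7 were higher in LTED-B (1.35, 1.25, 0.97 and 0.63), so members of one pathway were split between the variants. STAT2, which transmits the interferon signal, had a log2 fold change of 0.02. The 3 OAS genes lie together on chromosome 12, where the 40 neighbours of OAS3 had a median of -0.27.

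BMP4, BMP7 and 3 ID genes were higher in LTED-D. BMPs are growth factors whose receptors activate SMAD proteins, and the ID genes, inhibitors of differentiation factors, are their direct targets. Of 17 BMP and TGF-beta genes tested, 8 were higher in LTED-D and 0 in LTED-B, with a median of -0.33. Among all genes tested, 4.80% were higher in LTED-D and 2.60% in LTED-B. BMP7 was at 6.45, 5.79 and 6.21 CPM in LTED-B and 27.1, 27.0 and 28 CPM in LTED-D (log2 fold change -2.15), and BMP4 at 8.28 to 8.47 CPM against 26.3 to 30.5 CPM (-1.75). ID1 was at 8.38, 8.49 and 8.33 CPM in LTED-B and 38.5, 37.4 and 39.9 CPM in LTED-D, with 36.3 CPM in parental cells (log2 fold change -2.20, adjusted p = 1.42e-16). ID3 and ID4 were higher in LTED-D too (-1.64 and -3.31), whereas ID2 was at 58.5 and 65.2 CPM. The levels of ID4 were low, at 0.08 CPM in LTED-B and 0.811 CPM in LTED-D. TGFB1, TGFBR2 and BMPR1B, low in both variants, completed the 8 (-1.52, -1.43 and -0.61). The receptors BMPR1A and BMPR2 had log2 fold changes of -0.10 and -0.14, and TGFBR1 one of 0.56, the highest of the list and not called. With upper quartile scaling 7 genes of the list were higher in LTED-D and 1 in LTED-B.

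Of 13 FGF receptors and feedback genes, 4 were higher in LTED-D and 0 in LTED-B, with a median of -0.46. The share called was 30.8%, against 7.40% of all genes tested. FGFR1, a receptor tyrosine kinase that these cells express at high level, was at 1072, 1101 and 1062 CPM in LTED-B and 1619, 1602 and 1667 CPM in LTED-D, both below 2257 CPM in parental cells. Its log2 fold change of -0.60 lay just past the limit, and it was not called without LTED-D replicate 3 (-0.58) or with upper quartile scaling (-0.54), which left 3 calls in the list. ETV5 and DUSP6 are induced by signalling through the MAPK pathway downstream of such receptors. ETV5 was at 5.29, 5.25 and 5.54 CPM in LTED-B and 28.5, 27.3 and 27.5 CPM in LTED-D (log2 fold change -2.37), and DUSP6 at 85.0 to 87.6 CPM against 182 to 192 CPM (-1.12). FGFR3 was called as well (-1.0), while the feedback inhibitors SPRY1, SPRY2 and SPRY4 had log2 fold changes of -0.21, 0.12 and -0.50 and FGFR4 one of -0.09.

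**Figure D3:**
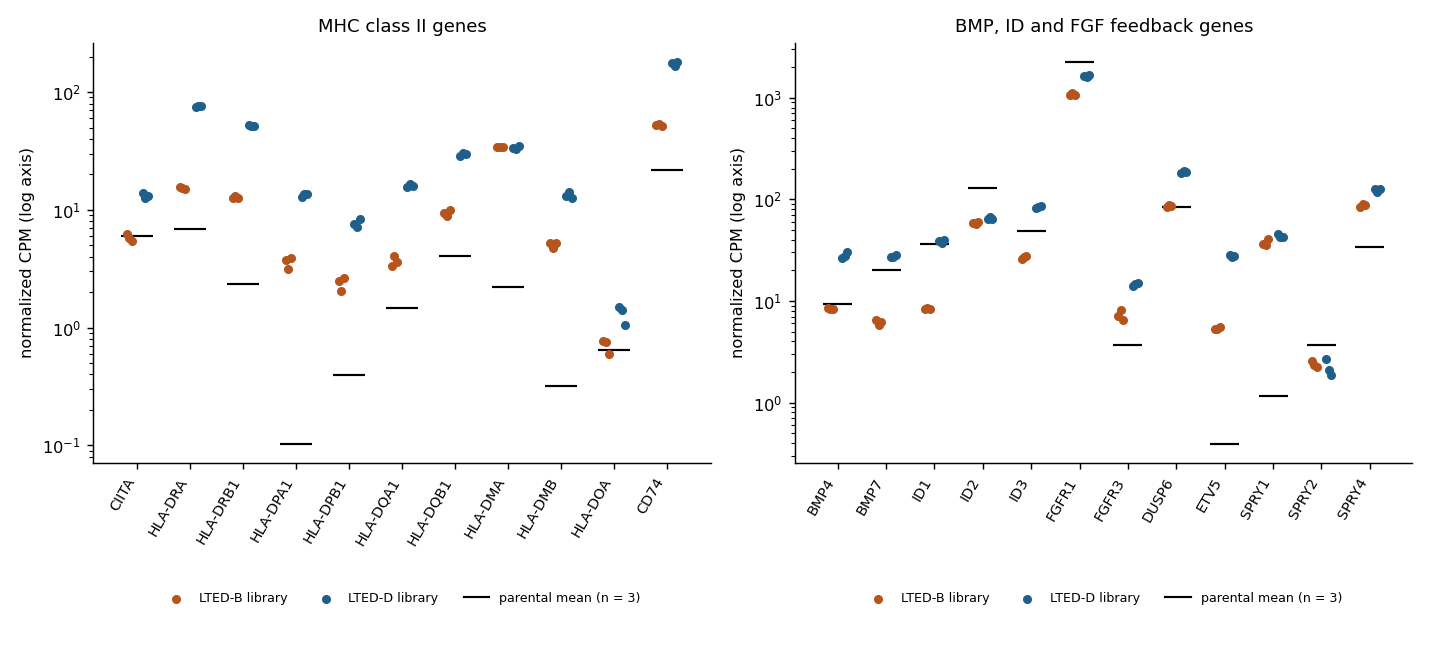
Normalized CPM (logarithmic axis) of 11 MHC class II genes (left) and 12 genes of the BMP and FGF lists (right), one point per library, with a bar at the mean of 3 parental libraries. LTED-D lies above LTED-B in 9 of the 11 MHC class II genes by a clear gap, while HLA-DMA coincides. In the right panel BMP4, BMP7, ID1, ID3, DUSP6 and ETV5 separate widely and ID2, SPRY1 and SPRY2 nearly coincide.

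IER3, an early response gene that protects from apoptosis, was at 1.76, 1.67 and 1.73 CPM in LTED-B and 35.6, 37.4 and 38.7 CPM in LTED-D, with 12.3 CPM in parental cells (log2 fold change -4.44). It was the one called gene of 13 AP-1 and immediate early genes. FOS, JUN and MYC had log2 fold changes of -0.41, -0.26 and -0.17.

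Of the genes listed for the ERBB, IGF, WNT and Notch pathways, 20%, 33.3%, 30.8% and 21.4% of those tested were called, where 7.40% of all genes were. Of 10 ERBB receptors and ligands, the ligands TGFA and BTC were higher in LTED-D (-0.67 and -0.93), and ERBB2, ERBB3 and ERBB4 were not called. IGFBP3 and IGFBP2, which bind insulin-like growth factors outside the cell, were higher in LTED-D: IGFBP3 at 21.2, 22.3 and 22.7 CPM against 69.4, 70.9 and 70.2 CPM, and IGFBP2 at 53.7 to 59.0 CPM against 132 to 138 CPM. IRS4, an adaptor of the insulin receptor, was the one gene of 9 in that list that was higher in LTED-B (1.05). Of 13 WNT genes, WNT9A, TCF7 and NKD1 were higher in LTED-B (0.93, 0.91 and 0.60) and the receptor FZD7 in LTED-D (-1.46), and WNT4, which ER controls in lobular carcinoma cells, was at 8.67 to 9.53 CPM and 7.67 to 8.39 CPM (log2 fold change 0.16, not called). NKD1 was not called without LTED-B replicate 1 (0.55), LTED-D replicate 1 (0.56) or LTED-D replicate 2 (0.58). Of 14 Notch genes, the receptor NOTCH1, the ligand JAG1 and the target HEY2 were higher in LTED-D (-0.89, -0.82 and -1.15).

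More adhesion and mesenchymal genes were called higher in LTED-D than in LTED-B, as was so over all genes tested (4.80% against 2.60%). CDH2, N-cadherin, was at 7.01, 7.01 and 6.75 CPM in LTED-B and 51.5, 50.4 and 52.5 CPM in LTED-D, with 52.4 CPM in parental cells (log2 fold change -2.89, adjusted p = 6.73e-19). CDH3, ITGB4 and TWIST1 were also higher in LTED-D, which made 4 of 10 tested in the list of basal, stem-like and EMT genes, with 0 higher in LTED-B and a median of -0.60. VIM, ZEB1 and ZEB2 had log2 fold changes of 0.51, 0.53 and 0.19 and were not called. Of 21 adhesion and matrix genes 6 were higher in LTED-D and 2 in LTED-B. LAMB1, another laminin chain, was at 59.6, 61.2 and 62.4 CPM against 200.5, 202 and 204 CPM in LTED-D (log2 fold change -1.73), the reverse of LAMB2. ITGB8, an integrin that activates TGF-beta, was at 3.30 to 3.42 CPM against 19.8 to 21.2 CPM. LAMA3, LAMC1, ITGAV and THBS1 had log2 fold changes between -0.85 and -0.64, and TNC was higher in LTED-B (0.77). LTED-D replicate 2, the well with fibroblast transcripts, held CDH2 at 50.4, LAMB1 at 202 and THBS1 at 222.4 CPM. The other LTED-D wells held CDH2 at 51.5 and 52.5, LAMB1 at 200.5 and 204, and THBS1 at 221.6 and 217.2 CPM. The part of fibroblast transcripts in the differences of these lists was not tested. CDH1, which encodes E-cadherin, was at 11.3 and 9.84 CPM.

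None of the genes listed for SREBP regulation or cholesterol was called. SREBF1 and SREBF2, the transcription factors that drive fatty acid and cholesterol synthesis, were at 182 to 195 and 104 to 106 CPM in LTED-B and at 149.7 to 156 and 88.1 to 94.5 CPM in LTED-D (log2 fold changes 0.31 and 0.19). The lists held 10 SREBP regulators and 22 cholesterol genes that were tested. FASN, fatty acid synthase, was at 1417, 1459 and 1342 CPM in LTED-B and 1882, 1773 and 1922 CPM in LTED-D, with 363 CPM in parental cells (log2 fold change -0.40, not called). Of 15 genes of fatty acid synthesis ACACB, FADS2 and ME1 were higher in LTED-D (-0.84, -0.72 and -2.23). ME1 stayed below 1.05 CPM and FADS2 below 13.7 CPM in every library of both variants, and the parental mean of FADS2 was 258 CPM.

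OXCT1, which lets cells burn ketone bodies, was at 22.5, 21.8 and 23.1 CPM in LTED-B and 76.7, 78.5 and 75.1 CPM in LTED-D, with 76.5 CPM in parental cells (log2 fold change -1.77). ETFA, an electron carrier of fatty acid oxidation, was lower in LTED-B as well (-1.10). Differences in the other direction were called in 2 genes of steroid metabolism. HSD17B2, which inactivates estradiol, was at 64.8, 64.4 and 70.0 CPM in LTED-B, 18.1, 18.4 and 19.4 CPM in LTED-D and 4.10 CPM in parental cells (log2 fold change 1.83), and STS, the sulfatase that releases estrone and other steroids from their sulfates, was at 23.5 to 25.0 CPM against 7.86 to 8.39 CPM (1.57). No other of the 17 genes tested from the drug and steroid metabolism list was called. That is 11.8% called, where 7.40% of all genes tested were.

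None of 20 replication genes and none of 21 mitotic genes was called, with medians of -0.12 and 0.06, and MKI67 was at 213 to 233 CPM and 199 to 217 CPM. Of 20 genes of the G1 phase, CCNE1 and the inhibitor CDKN1A were higher in LTED-D (-0.90 and -0.95) and the inhibitor CDKN2D in LTED-B (0.59), CDKN1A having been at 49.8 CPM in parental cells and at 1.37 to 3.27 CPM in both variants. BCL2, an inhibitor of apoptosis, and BID, a promoter of it, were higher in LTED-D among 12 apoptosis regulators (-0.85 and -0.59). CDKN2D was not called without LTED-B replicate 2 (0.53), LTED-D replicate 1 (0.54) or LTED-D replicate 2 (0.54), nor BID without LTED-B replicate 1 (-0.58), LTED-B replicate 2 (-0.58) or LTED-D replicate 3 (-0.56) or with upper quartile scaling (-0.53). CHAC1 and TRIB3, targets of the integrated stress response, were higher in LTED-B (1.22 and 0.65) among 18 genes of that response and the unfolded protein response. EGLN3, an oxygen sensor, was the one called gene of 20 in glycolysis and hypoxia (-1.04), and UQCRC2 the one of 24 in the respiratory chain (-0.63).

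Transcripts of 3 abundant cytosolic chaperones were higher in LTED-D. HSP90AA1 was at 1172, 1233 and 1291 CPM in LTED-B and 2189, 1945 and 2059 CPM in LTED-D, HSP90AB1 at 1436, 1471 and 1534 CPM against 2286, 2246 and 2328 CPM, and HSPA1A, which is nearly identical to HSPA1B, at 887 to 963 CPM against 1543 to 1587 CPM. Of 21 heat shock genes, a list made after the values had been seen, 4 were higher in LTED-D (these 3 and SERPINH1), 0 were higher in LTED-B, and the median was -0.36. PEG10, an imprinted gene derived from a retrotransposon, was at 446, 459 and 488 CPM in LTED-B and 1677, 1550 and 1609 CPM in LTED-D (log2 fold change -1.80). SGCE, its imprinted neighbour, was at 28 and 36.3 CPM, not called.

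**Figure D4:**
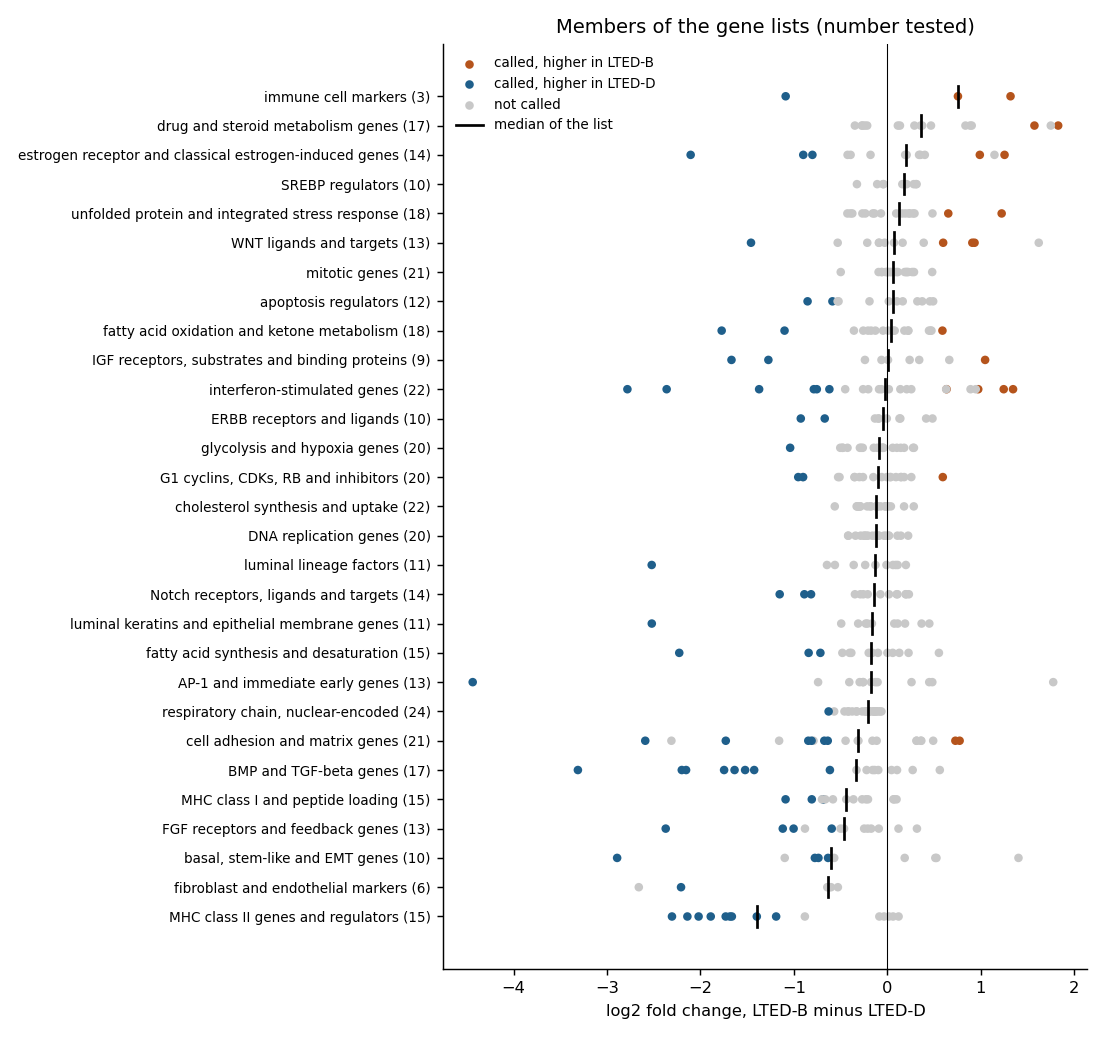
Log2 fold changes of LTED-B minus LTED-D (horizontal axis) for the tested members of 29 gene lists, one point per gene, with a bar at the median of each list and the number tested in brackets. Orange points were called higher in LTED-B, blue points higher in LTED-D and grey points were not called. The MHC class II list has 9 blue points and a median of -1.40, while the cholesterol, replication and mitotic lists hold grey points only.

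The difference between the variants also ran along chromosomes. Windows were formed of 40 neighbouring genes each, among genes averaging 5 CPM or more. Of 549 window medians, 472 lay within 0.2 of 0, and the range was -0.64 to 0.37. A median beyond 0.5 in either direction was found in 3 stretches, all lower in LTED-B. The first covered chr16:3018445-15139339, with 80 genes, a median of -0.59, 4 genes with a positive value and 40 called higher in LTED-D. The second covered chr16:19067614-30535347, with 100 genes, a median of -0.54 and 42 called higher in LTED-D against 1 in LTED-B. In both, LTED-D lay above parental cells by a median of 0.62 and LTED-B differed from them by 0.06 and 0.09. The third, chr17:43271369-45317029, held 40 genes with a median of -0.60 and 16 called higher in LTED-D, and here the medians against parental cells were -0.17 in LTED-B and 0.10 in LTED-D. When genes averaging 1 CPM or more formed the windows, the chromosome 17 stretch had medians of -0.72 in LTED-B and 0.01 in LTED-D against parental cells.

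Genes named from these stretches were taken only among those called higher in LTED-D. That they lay near or beyond the median of their 40 neighbours follows from this choice. USP7, a deubiquitinase that controls p53 stability, was at 168, 171 and 179 CPM in LTED-B and 299.5, 292 and 295 CPM in LTED-D (log2 fold change -0.78, neighbours -0.60). HAPSTR1, NOMO1, GDE1 and EIF3C had log2 fold changes of -0.84, -1.08, -0.65 and -0.97, where the neighbours had medians of -0.60, -0.52, -0.44 and -0.51, and NOMO1 and EIF3C have near-identical copies on the same chromosome arm. On chromosome 17, SLC25A39, GRN and UBTF had log2 fold changes of -1.18, -0.88 and -0.63, where the neighbours had medians of -0.60, -0.53 and -0.70. Some genes of the lists above lie on such stretches too. The 40 neighbours of CIITA had a median of -0.56, against its own -1.19, and those of UQCRC2 one of -0.58, against -0.63.

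Medians over whole chromosomes differed as well. The median log2 fold change was -0.30 on chromosome 7, -0.27 on chromosome 12 and -0.31 on chromosome 16, and between -0.06 and 0.04 on each other chromosome. Against parental cells the medians of these 3 chromosomes were 0.33, 0.29 and 0.36 in LTED-D and 0.04, 0.02 and 0.04 in LTED-B. The shift on chromosome 16 did not cover all of it. Windows up to chr16:46698394 had medians between -0.64 and -0.34 for LTED-B minus LTED-D. Those from chr16:46702282 onward had medians between -0.08 and 0.03, and a window across both parts had -0.11. Among genes of at least 5 CPM, 26.0% were called on chromosome 16, 13.7% on chromosome 7 and 12.6% on chromosome 12, against 8.56% of all. Without the genes of these chromosomes 1485 of 22142 genes were called (6.71%), 613 higher in LTED-B and 872 higher in LTED-D. The share of calls higher in LTED-B was then 41.3% instead of 35.1%. OAS3, DUSP6, LAMB1, ITGB8, IGFBP3, TWIST1, ACACB and PEG10 lie on chromosomes 7 and 12, and their neighbours had medians between -0.37 and -0.17. The HLA genes named above, S100A6, CDH2, ID1 and ETV5 lie elsewhere, and their neighbours had medians between -0.09 and 0.11. DNA copy number was not measured in these samples, and its part in these shifts was not tested.

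**Figure D5:**
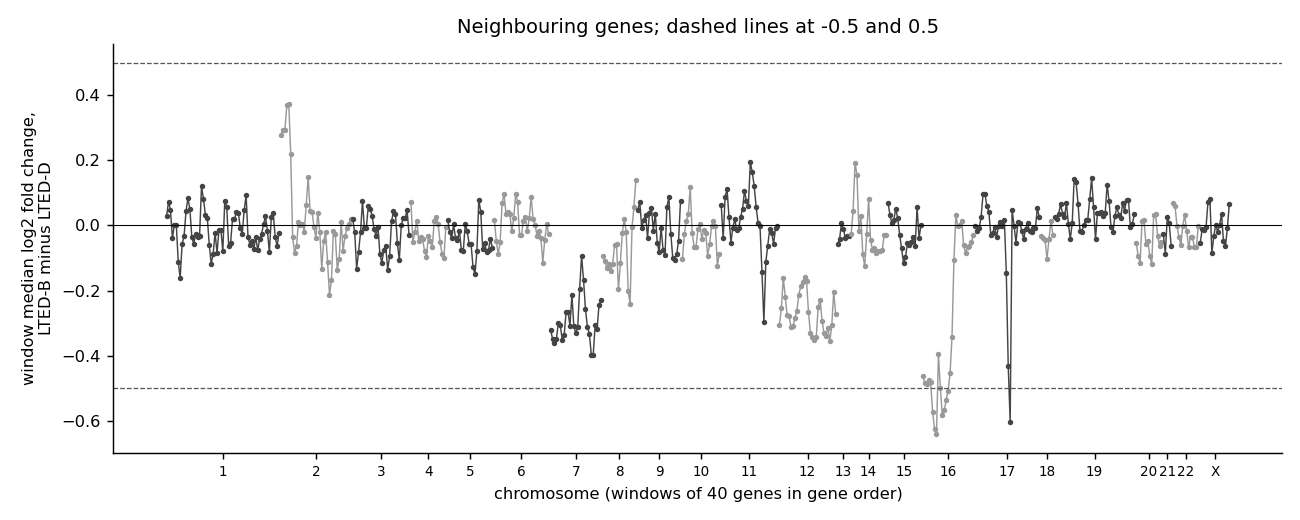
Median log2 fold change of LTED-B minus LTED-D (vertical axis) in windows of 40 neighbouring genes, in gene order along chromosomes 1 to 22 and X (horizontal axis), one point per window, with adjacent chromosomes in alternating greys. Dashed lines mark -0.5 and 0.5. Most windows lie within 0.2 of 0, and chromosomes 7 and 12 lie near -0.3 over their length. The first part of chromosome 16 and a short part of chromosome 17 reach below -0.5.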

How the data were processed

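RNA-Seq libraries of MM134 LTED-B and LTED-D cells (3 each) were compared within a fit of the 15 MM134 libraries, so that all share 1 estimate of the spread. The authors used a stranded total RNA kit and a HiSeq 2000, and quantified genes with Salmon 0.6.0 on build hg38 with the annotation of Ensembl release 82. The deposited values are estimated counts that need not be whole, for 60619 genes, not normalized for depth or gene length. The strand setting and trimming are not given in the sources used here. How Salmon divides fragments between overlapping genes or near-identical copies affects single members of such families.

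Counts were rounded and filtered with filterByExpr, which kept 26061 genes, and normalized by TMM. They were tested with edgeR 4.0.16 in R 4.3.3 (two-sided quasi-likelihood F-test, p-values adjusted by Benjamini-Hochberg over all genes tested). Genes were called above a 1.5-fold difference with an adjusted p under 0.001, the thresholds of the study. Where a group had at most 3 counts in every library, a fold is given as a bound against 3 counts in each library, which covers counting error only. Symbols and positions came from GENCODE release 44 (56434 genes matched by Ensembl ID), on the same genome build. The depth of a library is its sum of counts. Replicates are wells, and nothing states that they came from separate cultures, so p-values measure the spread between these wells. Replicates with the same number did not deviate together (r of 0.0185, 0.0532 and -0.00746 over 11925 genes), so numbers were not taken to pair samples.

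The groups, lists and rules were chosen with earlier results of these data known. Genes named in the text are the 12 with the largest folds in each direction among called genes of at least 5 CPM, the 6 with the largest differences in CPM in each direction, up to 4 called members of each of 29 gene lists, 10 genes followed in these cells and 3 genes of each stretch, with other list members beside them. The lists of the chromosome 15 region, heat shock, S100, secretoglobin, GSTM, alpha protocadherin, ANKRD30 and glucose-responsive genes and the neighbour of PEG10 were added after their values were seen. Windows held 40 genes of at least 5 CPM and moved by 20 genes. Successive windows whose median lay beyond 0.5 form a stretch. Distances are Euclidean, on log2 CPM. Neighbours are the 40 nearest genes of that set. Alternatives were DESeq2 1.42.0, RLE size factors, upper quartile factors, other filters and thresholds, counts thinned to the smallest library, a fit of both variants alone, a replicate block, other windows and each library left out. Leaving out LTED-B replicate 3 together with LTED-D replicate 2, and the genes of chromosomes 7, 12 and 16, was added after seeing the data. The scripts were tested on simulated data. The other software was pandas 2.3.3, numpy 2.4.6 and, for figures, matplotlib 3.10.9. Some genes of the lists are not reported here.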

Additional observations from a re-analysis of the deposited data

Results flagged for a closer look

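In 10 of the genes named above, LTED-B and LTED-D differed from parental cells in opposite directions, both by the rule for calls (1.5-fold, adjusted p 0.001), and the variants differed from each other by it too. Other named genes had opposite signs with a change under the 1.5-fold limit on at least one side, such as ANKRD30A (log2 fold changes of 0.54 in LTED-B and -0.56 in LTED-D against parental cells). The values given for the 10 genes are log2 fold changes of LTED-B minus LTED-D by edgeR. Both variants are set against the same 3 parental libraries. In 5 of the genes LTED-B lay above parental cells and LTED-D below: EGFLAM (7.68), PACSIN3 (6.46), B3GNT9 (5.81), GSTM1 (4.61) and ABCC3 (4.54). In the other 5 genes LTED-D lay above parental cells and LTED-B below: PNMT (-8.25), SLC5A8 (-7.12), S100A6 (-6.62), IER3 (-4.44) and ITGB8 (-2.59). Against parental cells GSTM1 had log2 fold changes of 1.27 in LTED-B and -3.34 in LTED-D, EGFLAM 3.58 and -4.10, and S100A6 -4.48 and 2.13.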

How the results depend on the processing

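The count of 1929 genes, 677 higher in LTED-B and 1252 higher in LTED-D, depended most on the thresholds. A minimum fold of 2 left 951 genes (306 and 645), no minimum fold gave 5806 (2142 and 3664), and an adjusted p under 0.05 gave 3165 (1458 and 1707). DESeq2 called 1863, RLE size factors 1948, upper quartile factors 1932, at least 10 counts in every library 1594, no filter 2148, thinned counts 1635 and a fit of the 2 variants alone 1724. Upper quartile factors moved the share of calls higher in LTED-B from 35.1% to 44.5%. Leaving out 1 library gave 1729 to 2033 genes, 561 to 665 of them higher in LTED-B and 1161 to 1368 higher in LTED-D. Replicate numbers were not taken to pair wells. A replicate block gave 1863 genes (640 and 1223), of which 1852 were among the 1929. Each shared call of every alternative had the same direction.

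Without LTED-B replicate 3 and LTED-D replicate 2 the MHC class II, FGF and adhesion lists had the same numbers of calls, the BMP and TGF-beta list 7 instead of 8 higher in LTED-D, the basal list 5 instead of 4 and the interferon list 3 instead of 4 higher in LTED-B. Windows of 60 genes gave 1 stretch instead of 3, genes of at least 1 CPM 4, with the chromosome 17 medians given above, and a median beyond 0.3 gave 12. The 12 include 1 higher in LTED-B, chr2:24202864-32011230, with a median of 0.36. HSP90AB1, TWIST1, UQCRC2 and UBTF, near the fold limit, were not called with upper quartile factors (-0.57 each), nor were FGFR1 (-0.54) and BID (-0.53). Genes under about 1 CPM, such as PSMB9 and TP63, limit what this depth can show, and a missing call there does not show equal levels.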
